A study of Mus musculus with 4 samples.

Results

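The data compare 2 single-cell RNA sequencing libraries of immune cells from mouse melanomas: one from mice given a PD1 antibody, and one from mice given the same PD1 antibody together with a CD40 antibody injected into the tumour. The tumours were grown from B16-F10, a transplantable melanoma line of C57BL/6 mouse origin that is poorly recognised by T cells. Mice were treated on days 8 and 11 after inoculation, and tumours were taken on day 14. The PD1 library came from mice that received the PD1 antibody intravenously with, as the labels' protocol is read here, dilution buffer in the tumour. The combination library came from mice that received the PD1 antibody intravenously and the CD40 antibody in the tumour. A second pair of libraries, used only for values side by side, had no PD1 antibody: a control with IgG, and CD40 antibody alone. Each library pooled cells of 6 mice, sorted as live CD45+ cells, so there was 1 library a group and no test between groups was possible. Intervals given here are 95% intervals that cover counting error only, not the spread between mice. Cells with at least 300 detected genes and at most 10% mitochondrial transcripts were kept, which left 9938 cells of the PD1 library and 9720 of the combination library. These 19658 cells are part of 35411 in the whole series of 4 libraries. Strain, sex and age are not given in the labels used here.

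CD40 is a receptor of the tumour necrosis factor family on dendritic cells, macrophages and B cells. Its natural ligand on helper T cells, or an agonist antibody, licenses those cells to present antigen, to make interleukin 12 and to prime CD8 T cells. PD1, encoded by Pdcd1, is an inhibitory receptor on activated T cells, and antibodies against it release T cells that have already been primed. Interferon gamma from activated T and NK cells induces guanylate-binding proteins, antigen presentation genes and the PD1 ligand PD-L1 in surrounding cells.

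Levels are given as CPM: the unique molecular identifiers (UMIs, which count captured RNA molecules) of a gene, summed over the cells of a class and normalised to the total UMIs of that class. Differences are log2 ratios of these levels, combination over PD1, so that a positive value is higher in the combination library. Cells were placed in classes one by one from a few marker genes. In the 5 classes described for genes, all 7 further marker genes that were not used for placing the cells stood above the median of the other classes in both libraries. Total UMIs per library ran from 117735875 to 164755549 across the series. The median cell had 11900 UMIs in the PD1 library and 13370 in the combination library. Cells of more than 1 class numbered 536 and 493 and were left out, and 132 cell barcodes occurred in both libraries. The summed level of 10 melanoma transcripts over all kept cells was 175.5 CPM in the PD1 library and 75.4 CPM in the combination library.

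CD8 T cells and neutrophils made up a larger share of immune cells in the combination library, and macrophages and monocytes, dendritic cells, B cells and regulatory T cells a smaller one. CD8 T cells were 996 of 8855 immune cells in the PD1 library, or 11.2% (10.6 to 11.9), and 2944 of 8707, or 33.8% (32.8 to 34.8), in the combination library, 3.01-fold higher. Neutrophils, short-lived phagocytes recruited from blood, were 1.85% (1.58 to 2.15) and 12.9% (12.2 to 13.6), 6.96-fold higher, a log2 ratio of 2.80 that was 3.78 among cells with at least 1000 genes. Regulatory T (Treg) cells, the Foxp3-expressing CD4 T cells that restrain other T cells, were 4.04% and 1.44%, 2.82-fold lower. The number of CD8 T cells per Treg cell was 2.78 in the PD1 library and 23.6 in the combination library. Mononuclear phagocytes, which include monocytes and macrophages, were 61.8% and 39.7%, and NK cells were 7.42% and 5.83%. Other CD4 T cells were 1.71-fold lower, at 148 and 85 cells, but their log2 ratio of -0.78 became -0.027 when the gate minimum was doubled. Because shares sum to 100%, a larger share of one class lowers the shares of the others. CD8 T cells per mononuclear phagocyte, a ratio free of the remaining classes, were 0.182 and 0.853.

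**Figure D1:**
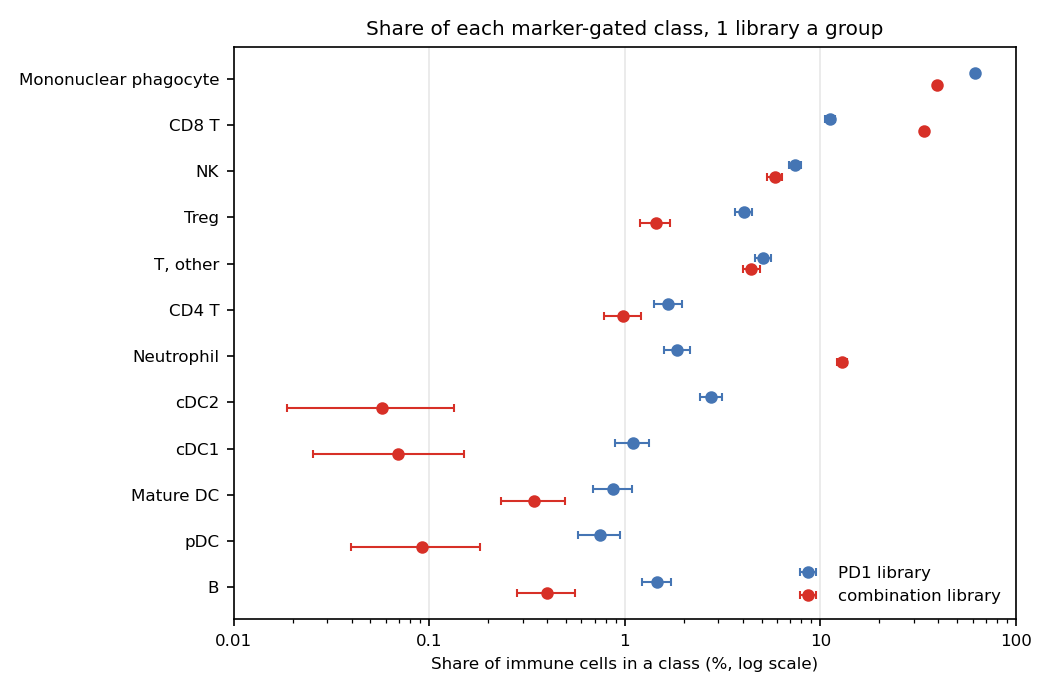
Share of each class among immune cells placed in a class (%, log scale) in the PD1 library (blue) and the combination library (red), 1 library a group; bars are exact 95% binomial intervals. CD8 T cells and neutrophils lie higher in the combination library, at 33.8% and 12.9%, and all 4 dendritic cell classes lie lower.

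Dendritic cells were scarce in the combination library. Both conventional classes and mature dendritic cells together held 419 cells, 4.73% of immune cells, with PD1 antibody and 41 cells, 0.471%, in the combination. Conventional type 1 dendritic cells, which cross-present antigen to CD8 T cells, numbered 97 and 6. Conventional type 2 dendritic cells numbered 245 and 5, plasmacytoid dendritic cells 66 and 8, and mature dendritic cells, which carry antigen to lymph nodes, 77 and 30. With cells grouped by clustering in place of markers, the log2 ratio of the type 2 share was -4.26, against -5.59, and that of the mature share -2.001, against -1.34. The type 1 and type 2 cells of the combination library were too few for a check on markers, with 5 of 7 further markers above the other classes in each. Levels over all kept cells, which need no class, were lower as well. Flt3, the growth factor receptor of dendritic cells, stood at 13.1 and 1.07 CPM, and Clec9a, a receptor for dead cells on the type 1 subset, at 20.8 and 4.21 CPM. Cd209a, a lectin of the type 2 subset, stood at 44.7 and 0.146 CPM, and Siglech of plasmacytoid cells at 14.1 and 1.43 CPM. The gate genes of mature dendritic cells, Ccr7 and Fscn1, stood at 52.5 and 20.2 CPM and at 29.7 and 12.5 CPM. Ccr7 had a UMI in 655 and 445 cells, many more than the 77 and 30 of that class, so its level is not a measure of mature dendritic cells alone. B cells numbered 129 and 35, and the B cell receptor component gene Cd79a stood at 23.6 and 10.7 CPM over all cells. Fewer cells and lower marker levels per cell cannot be told apart in these summed levels.

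In CD8 T cells the genes with the largest differences included homing receptors and an effector memory granzyme on the higher side, and the chemokine gene Ccl1 on the lower side. Gzmk (ENSMUSG00000042385, GRCm38 chromosome 13, 113171608 to 113225908), a granzyme of effector memory cells, stood at 103 CPM (98.2 to 107) in the PD1 library and 404 CPM (399 to 410) in the combination library, 3.94-fold higher. Rora (chromosome 9, 68653786 to 69388246), a nuclear receptor of effector lymphocytes, stood at 28.6 and 120.5 CPM, a log2 ratio of 2.08 (1.95 to 2.20). Klf2, a transcription factor that maintains the receptors for exit from tissue, stood at 42.3 and 167 CPM. The integrin subunit gene Itgb7 was at 61.8 and 239 CPM, the chemokine receptor gene Cxcr3 at 38.6 and 143 CPM, and the exchange factor gene Rasgrp2 at 19.3 and 77.6 CPM. Emb, a membrane glycoprotein gene, and Gpr183, the oxysterol receptor gene that positions lymphocytes, were higher by 1.81 and 1.63. On the lower side, the chemokine gene Ccl1 stood at 85.3 and 12.8 CPM, a log2 ratio of -2.73. Nrgn, a calmodulin-binding protein gene, stood at 458 and 134 CPM, and Nrp1, the neuropilin 1 gene, at 121 and 51.3 CPM. Eno3, Adamts6, Srgap3, Chn2 and Gldc were also lower, by log2 ratios from -1.99 to -1.28.

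The share of CD8 T cells with a Gzmk UMI was larger in the combination library. To compare cells of unlike depth, every cell was thinned to 3000 UMIs, which left out 10 and 23 shallower cells. After thinning, 20.5% of CD8 T cells in the PD1 library and 54.2% in the combination library had a Gzmk UMI, against 44.9% and 74.8% at full depth. Phagocytes, which should lack Gzmk, gave 0.0368% and 0.524%. Median depths were 16300 and 13590 UMIs in the thinned CD8 T cells and 13370 and 18160 in the phagocytes. Cells with both Gzmk and Pdcd1 were 14.0% and 33.9% of CD8 T cells, and the share with Pdcd1 among cells with Gzmk was 68.3% and 62.5%. Cells with Gzmk but not the late granzyme gene Gzmc were 17.2% and 51.1%, and cells with Gzmc but not Gzmk were 19.1% and 10.3%. Over all CD8 T cells, the shares with Pdcd1 were 66.6% and 64.1%, with the proliferation gene Mki67 24.5% and 25.1%, and with the stem-like factor gene Tcf7 11.97% and 10.07%. The larger Gzmk share was measured beside little difference in the shares with Mki67 or Pdcd1.

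Of the higher genes given so far, Rora stood nearly as high among CD8 T cells without a Gzmk UMI, and the others differed less there than in all CD8 T cells. These were 549 of 996 cells in the PD1 library and 743 of 2944 in the combination library. In them Rora differed by 2.00, against 2.08 in all CD8 T cells. Emb, Itgb7 and Gpr183 differed by 1.42, 1.39 and 1.31, against 1.81, 1.95 and 1.63. Klf2 differed by only 0.48, against 1.98, and Rasgrp2 and Cxcr3 by 0.73 and 0.83. Ccl1 and Nrgn were lower here too, by log2 ratios of -1.93 and -1.13. Klrg1, an inhibitory receptor of terminal effector cells, stood at 8.68 and 61.7 CPM in all CD8 T cells, and its log2 ratio was 2.83 there and 2.74 without Gzmk. Cells without a UMI can still express a gene, so this split separates the cells only in part.

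**Figure D2:**
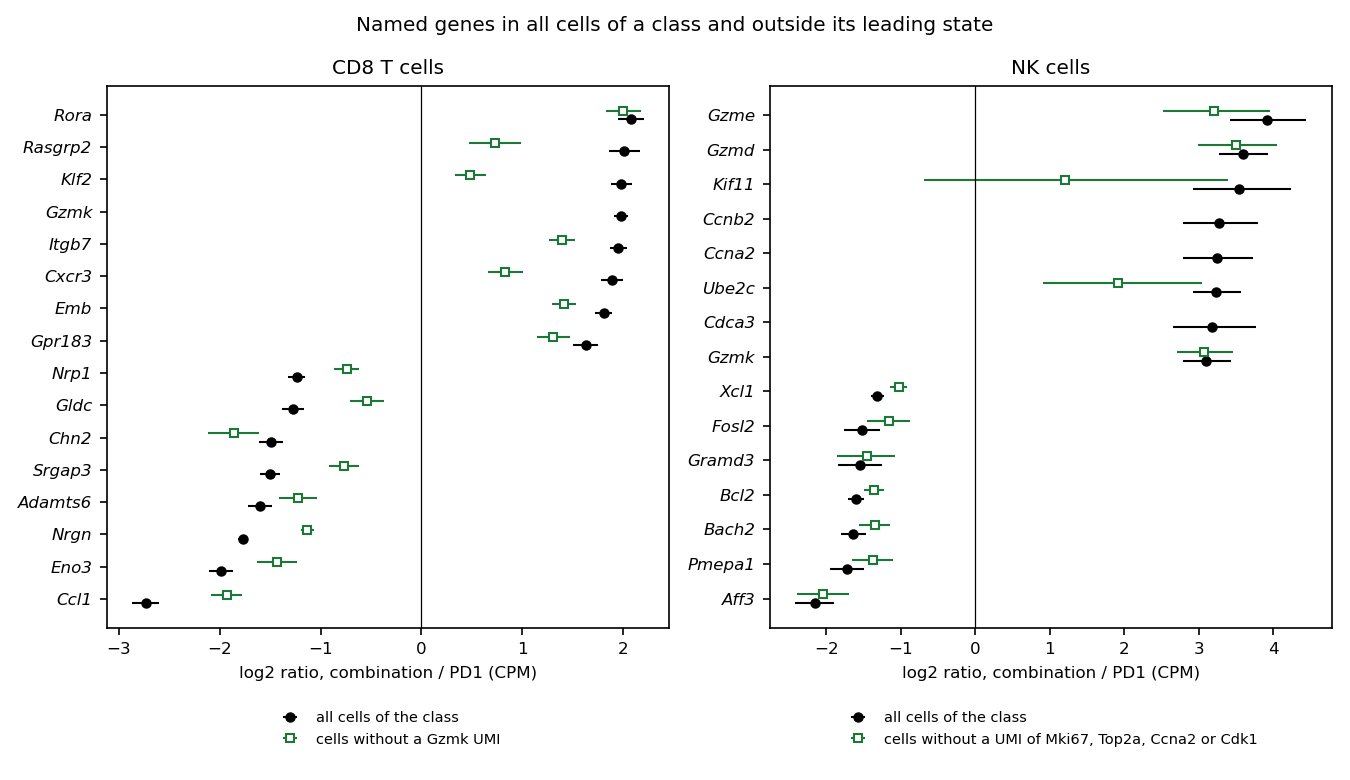
Log2 ratios of CPM, combination over PD1, for the named genes in CD8 T cells (left) and NK cells (right), in all cells of the class (black) and in cells without a UMI of the genes given in the legend (green); bars are 95% intervals for counting error, and genes that define the split are drawn for all cells only, as are Ccnb2 and Cdca3, which had fewer than 3 UMIs outside it in the PD1 library. Rora lies near 2 in both sets of CD8 T cells, Klf2 drops from 1.98 to 0.48, and Gzmd and Gzmk stay above 3 in both sets of NK cells.

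The pathway lists gave a mixed picture in CD8 T cells. Of 13578 genes measured in the class, 9.99% were at least 1.5-fold higher and 7.92% at least 1.5-fold lower. In the homing and retention list, 8 of 16 genes were higher and 1 lower, with a median log2 ratio of 0.59. Its members Ccr2 and S1pr1, receptors for inflammatory chemokines and for the lipid that guides exit from tissue, were higher by 1.38 and 1.71, and Ccr8 was lower by -2.17. Ccr2 differed by -0.23 with cells grouped by clustering, and S1pr1 by 0.45 in cells without a Gzmk UMI. Of the guanylate-binding protein and immunity-related GTPase genes, which act against intracellular microbes, 7 of 14 were higher and none was lower, with a median of 0.61 and a range from 0.27 for Gbp6 to 1.56 for Iigp1. These values also moved with the cells used. Gbp2 differed by -0.20 with cells grouped by clustering, and Gbp6 and Iigp1 by 0.17 and 0.51 in cells without a Gzmk UMI. In the type I interferon list 4 of 15 were higher and none was lower, with a median of 0.49 and Rtp4 highest at 0.89, but that median was -0.61, and Rtp4 -0.088, when cells were grouped by clustering in place of markers. Naive and stem-like genes were higher in 5 of 13 and lower in 2, with Slamf6 at 13.6 and 36.4 CPM, Lef1 at 30.7 and 62.9 CPM and Tcf7 at 33.5 and 36.6 CPM. No gene of the proliferation list of 16 or of the oxidative phosphorylation list of 15 differed by 1.5-fold.

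Killing and inhibition genes of CD8 T cells divided by member. In the cytotoxic list 4 of 14 genes were higher and 3 lower, with a median of -0.06. Gzma, a granzyme, stood at 214 and 853 CPM, while the granzyme gene Gzmc stood at 1073 and 531 CPM. The pore protein gene Prf1 was at 1415 and 914 CPM and Gzmb at 3417 and 3065 CPM. In cells without a Gzmk UMI, Gzma differed by only 0.56, at 159 and 235.5 CPM, and Gzmc by -0.67. Among cytokine and chemokine genes 4 of 15 were higher and 4 lower: Tnf stood at 26.9 and 55.4 CPM, Il21 at 1.08 and 7.62 CPM, and Ifng at 658 and 559 CPM. In the inhibitory receptor and exhaustion list none of 14 was at least 1.5-fold higher and 3 were lower, with a median of -0.25. Pdcd1 was at 523 and 478 CPM, Lag3 at 496 and 397 CPM, Tox, the transcription factor of exhausted cells, at 419.9 and 281 CPM, and Ctla4 at 119 and 171 CPM. Cd200r1 and Cd244a, both inhibitory receptors, were lower by -1.34 and -0.99. Among transcription factor genes, Ikzf2 was lower at -0.86, and Maf was at 4.93 and 11.3 CPM but differed by -0.67 in cells without a Gzmk UMI. Markers of other cells were present in the class: Lyz2 of phagocytes stood at 45.5 and 34.8 CPM and S100a8 of neutrophils at 0.206 and 5.203 CPM. The part of such cells or of their free RNA in these values was not tested.

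**Figure D3:**
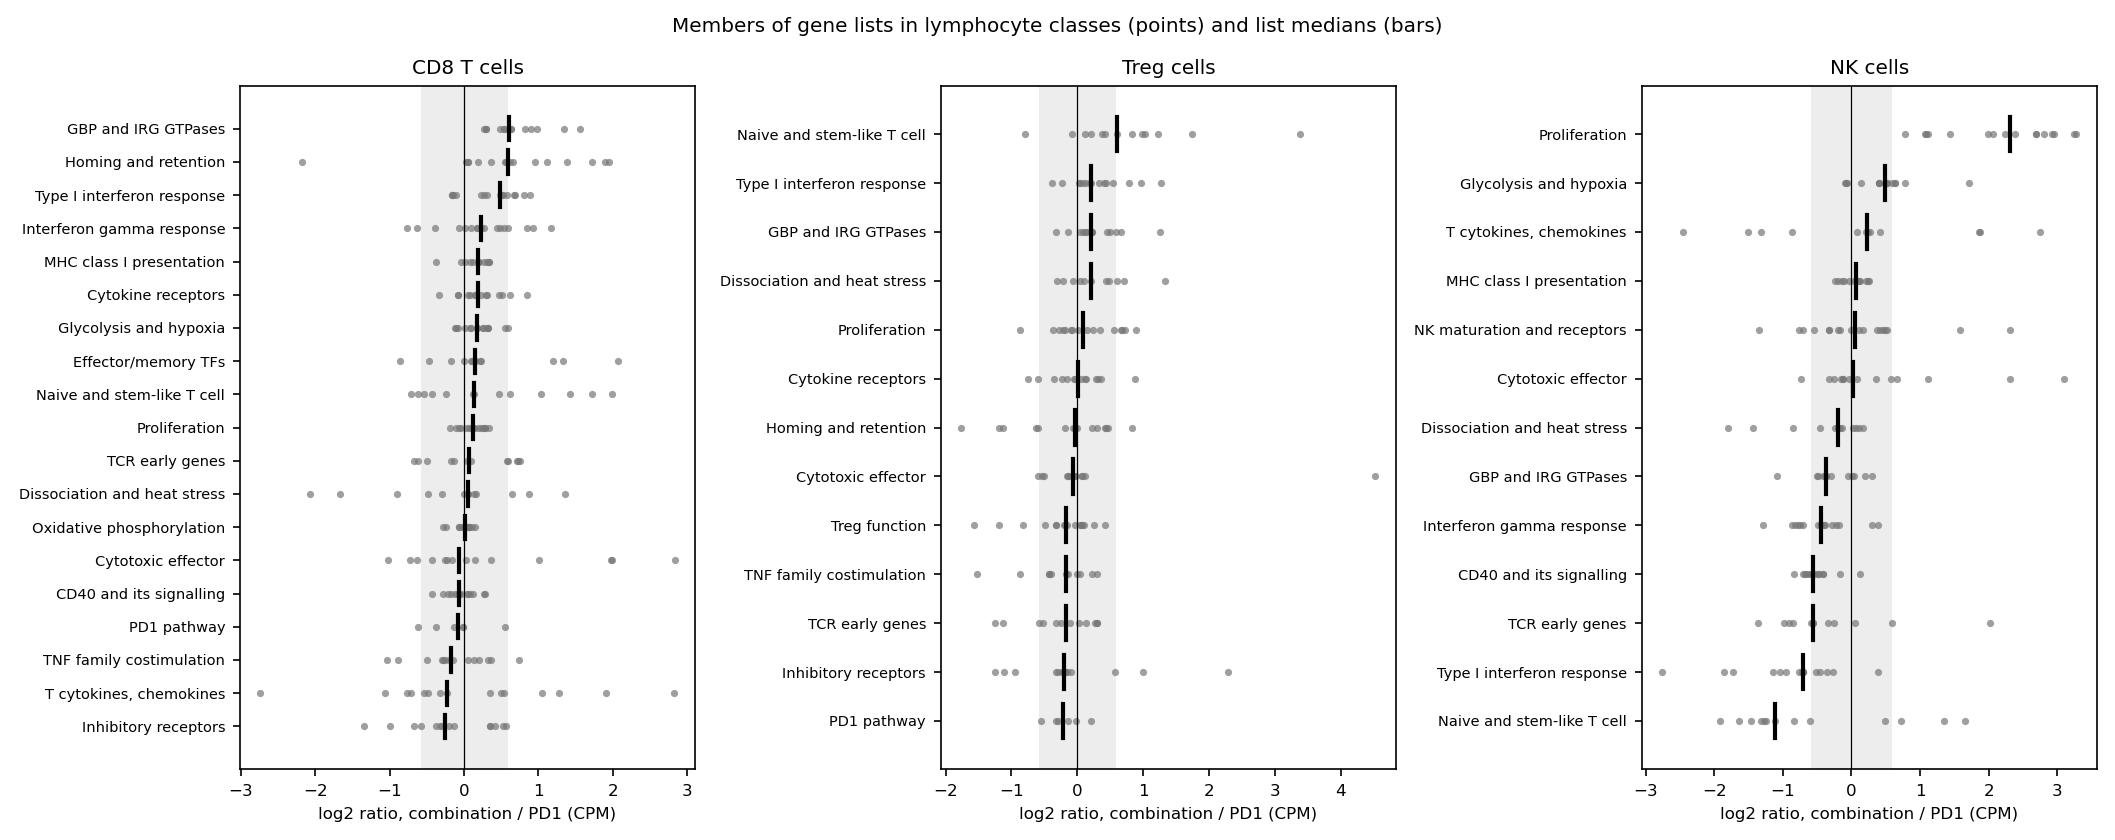
Log2 ratios of CPM, combination over PD1, for each measured member (points) of the gene lists in CD8 T, Treg and NK cells, with list medians (bars); the grey band marks differences under 1.5-fold. All 16 proliferation genes lie right of the band in NK cells, whereas in CD8 T cells all 16 lie inside it.

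Treg cells numbered 358 in the PD1 library and 125 in the combination library, and 29.6% and 16.0% of them, in that order, lay within 2 times the gate minimum for Foxp3. The share of Treg function genes that were lower was close to that of all genes measured in the class. None of 16 measured genes was at least 1.5-fold higher and 3 were lower, against 5.81% and 13.8% of 9890 genes measured in the class, with a median of -0.17. Nt5e, which encodes the enzyme CD73 that makes adenosine, stood at 58.5 and 19.7 CPM, and Ccr8, the chemokine receptor of tumour Treg cells, at 390.3 and 171 CPM. Ctla4 stood at 1386 and 1111 CPM and Il2ra at 466.3 and 420 CPM. Among the named lower genes, Rbpj, the nuclear effector of Notch signalling, stood at 205 and 49.4 CPM, and Itgb8, the integrin subunit that activates transforming growth factor beta, at 146 and 42.5 CPM. Nckap5, Ephx1, Kcnq5, Cpd, Mybbp1a and Hivep3 were lower by log2 ratios from -1.96 to -1.66. Without the cells that had a UMI of Cd8a, Cd8b1 or Gzmk, Rbpj and Itgb8 differed by -2.22 and -1.88.

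Naive and stem-like genes were higher in 7 of 13 and lower in 1 in Treg cells, with a median of 0.61. Klf2 stood at 71.8 and 169 CPM, Satb1, a chromatin organiser gene, at 86.4 and 177 CPM, and Id3, a transcription regulator gene, at 4.75 and 15.9 CPM. The chemokine gene Xcl1 stood at 7.72 and 80.5 CPM, but its log2 ratio of 3.38 became -1.69 when the Foxp3 minimum was doubled. Ccl9, Emb, Rasgrp2, Serpina3f, Dgat1 and Ube2c were higher by log2 ratios from 1.07 to 1.98. Gzmk stood at 2.97 and 68.4 CPM in Treg cells, from 10 and 90 UMIs, and the CD8 marker Cd8a at 1.48 and 4.56 CPM, and the part of other T cells in this value was not tested. The interferon-induced gene Ifit3 and the heat shock gene Hspa1b were higher by 1.27 and 1.33, and both turned lower under other settings. In the type I interferon list 3 of 15 genes were higher, and its median of 0.21 became -0.51 with cells grouped by clustering.

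NK cells were slightly fewer in the combination library and carried more transcripts of cell division and of granzymes. All 16 proliferation genes were at least 1.5-fold higher, against 9.38% higher and 10.9% lower of 10821 genes measured in the class, with a median of 2.31. Mki67 stood at 31.8 and 223 CPM, and the cyclin genes Ccna2 and Ccnb2 at 9.09 and 86.2 CPM and at 8.01 and 77.7 CPM. After thinning, 3.02% and 16.5% of NK cells had a Mki67 UMI, with median depths of 6324 and 11060 UMIs, while neutrophils gave 0 of 32 cells and 1.18% of 934. The median of the list was 0.93 with cells grouped by clustering and 1.23 in cells where marker and cluster agreed, so its size moved with how the class was drawn. Kif11, a motor of the mitotic spindle, and Ube2c and Cdca3, cell cycle genes, were 11.7-fold, 9.44-fold and 9.10-fold higher. Glycolysis genes were higher in 5 of 15 and lower in none, with Gapdh at 635 and 1093 CPM.

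The granzyme genes of NK cells differed by member. Gzme stood at 7.57 CPM (5.28 to 10.5) and 114 CPM (106 to 123), and Gzmd at 18.2 and 220.0 CPM. Both belong to a cluster of near-identical granzyme genes, so the split of reads between them is uncertain. Gzmk stood at 19.0 and 163 CPM, and 4.44% and 23.9% of thinned NK cells had a Gzmk UMI, against 7.31% and 38.6% at full depth. Gzmc stood at 805 and 1746 CPM, Prf1 at 1211 and 1560 CPM, and Gzmb at 3031 and 2791 CPM. In the 552 and 300 NK cells without a UMI of Mki67, Top2a, Ccna2 or Cdk1, Gzmd, Gzme and Gzmk still differed by 3.50, 3.20 and 3.08. Ifng did not: it stood at 73.8 and 268 CPM in all NK cells, a log2 ratio of 1.86, but differed by 0.22 in the cells without those proliferation UMIs. In the NK maturation and receptor list 2 of 18 genes were higher and 3 lower, with a median of 0.05. Its members Klrg1 and Cx3cr1, maturation receptor genes, were higher by 2.31 and 1.59, and Cd27, which marks less mature cells, was lower by -1.34.

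Genes of resting NK cells were lower. In the naive and stem-like list 9 of 13 genes were lower and 3 higher, with a median of -1.12. Tcf7 stood at 136 and 62.8 CPM, and Il7r, an exception, at 12.8 and 40.1 CPM. Bcl2, which protects against cell death, stood at 512 and 169 CPM. The transcription regulator genes Aff3 and Bach2 stood at 110.4 and 24.9 CPM and at 206 and 66.2 CPM. Pmepa1, Fosl2, Gramd3 and the chemokine gene Xcl1 were lower by log2 ratios from -1.72 to -1.31. Without the proliferation UMIs, Aff3, Bcl2 and Bach2 still differed by -2.04, -1.36 and -1.35. Interferon genes were lower as well: 11 of 16 type I interferon genes were at least 1.5-fold lower and none higher, with a median of -0.71, and in the interferon gamma list 6 of 16 were lower. Ifit1 stood at 21.6 and 6.53 CPM, and belongs to a family of similar genes. The T cell marker Cd3e stood at 8.01 and 3.57 CPM in the class.

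Neutrophils of the combination library carried far more transcripts of the guanylate-binding proteins and immunity-related GTPases, proteins that interferon gamma induces and that attack the vacuoles of intracellular microbes. All 14 genes of this list were at least 1.5-fold higher, with a median log2 ratio of 2.51, which was 1.48 with cells grouped by clustering. Of 7905 genes measured in neutrophils, 9.36% were higher and 46.7% lower by that measure. This background was lopsided, and scaling by the median ratio of genes, which shifted all values by 0.366, gave 17.3% higher and 26.8% lower. Part of the lower share comes from setting counts under 3 UMIs to 3. That floor is 7.58 CPM in neutrophils of the PD1 library and 0.551 CPM in those of the combination library. Kcnq5, with 0 and 20 UMIs, counted as lower this way, and how many genes did so was not counted. Gbp4 stood at 20.2 CPM (8.72 to 39.8), from 8 UMIs, and 789 CPM (766 to 813). Gbp2 stood at 344 and 2003 CPM, Irgm1 at 164 and 914 CPM, Igtp at 88.4 and 408 CPM, and Gbp5 at 131 and 490 CPM. Irgm2 had the smallest difference, at 85.9 and 169 CPM. Gbp8 had 2 UMIs in the PD1 library, so its level in the combination library, 307 CPM, was set against the floor of 3 UMIs. It was 40.5-fold higher than that floor, a log2 ratio of 5.34 with a lower bound of 4.07. In the 156 and 566 neutrophils without an Il1a UMI, Gbp4 and Gbp2 differed by 5.24 and 2.62. The neutrophils of the PD1 library were few and shallow, with 164 cells and a median of 2276 UMIs against 1122 cells and 4497 UMIs, and 64 and 848 of them had at least 1000 genes.

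The upstream sequences of 4 of these genes are shown because motifs known from the promoters of interferon-induced genes are marked in them. Of the 14 genes, 9 were in the RefSeq table of promoters for GRCm38.p6. The palindrome TTCNNNGAA occurred in the 250 bases upstream of 6 of the 9 genes, or 66.7%, against 8.13% of 27025 genes. The second motif, TTTC, any 2 bases, then TTTC, is the core of the element bound by interferon regulatory factors. It occurred in all 9, against 3.46%. Both strands were searched, and both motifs occurred upstream of 6 of the 9 genes, against 0.459% of all. A match is a description of letters and not evidence of a bound site. Capitals mark matches of either motif on either strand, and sequences are written 5′ to 3′ on the strand of the gene.
Gbp2 (chr3:142620413-142620662, plus strand): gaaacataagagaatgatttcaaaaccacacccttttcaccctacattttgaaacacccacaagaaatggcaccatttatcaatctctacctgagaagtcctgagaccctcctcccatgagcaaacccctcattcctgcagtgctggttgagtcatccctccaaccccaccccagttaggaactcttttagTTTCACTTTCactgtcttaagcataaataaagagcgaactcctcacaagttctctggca
Gbp5 (chr3:142496684-142496933, plus strand): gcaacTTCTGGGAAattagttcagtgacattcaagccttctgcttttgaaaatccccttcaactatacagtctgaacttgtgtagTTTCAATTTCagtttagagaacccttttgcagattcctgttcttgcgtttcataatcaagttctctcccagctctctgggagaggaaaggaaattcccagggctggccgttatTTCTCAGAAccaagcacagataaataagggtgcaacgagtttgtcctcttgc
Igtp (chr11:58199306-58199555, plus strand): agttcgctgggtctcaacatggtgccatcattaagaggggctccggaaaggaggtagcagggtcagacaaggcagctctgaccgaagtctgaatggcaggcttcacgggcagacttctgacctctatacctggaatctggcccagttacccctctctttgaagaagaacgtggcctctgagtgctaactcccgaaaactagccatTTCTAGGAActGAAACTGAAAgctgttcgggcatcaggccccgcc
Irgm1 (chr11:48871421-48871670, minus strand): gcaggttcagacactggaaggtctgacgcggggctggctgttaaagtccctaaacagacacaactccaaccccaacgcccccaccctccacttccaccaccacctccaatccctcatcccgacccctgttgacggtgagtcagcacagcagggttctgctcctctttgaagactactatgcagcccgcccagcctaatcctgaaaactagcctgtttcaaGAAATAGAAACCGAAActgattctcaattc
In these windows Gbp5 and Igtp hold both motifs, and Gbp2 and Irgm1 hold only the second. Their log2 ratios in neutrophils were 1.90, 2.21, 2.54 and 2.48, and the 2 genes with both motifs did not have the larger values.

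**Figure D4:**
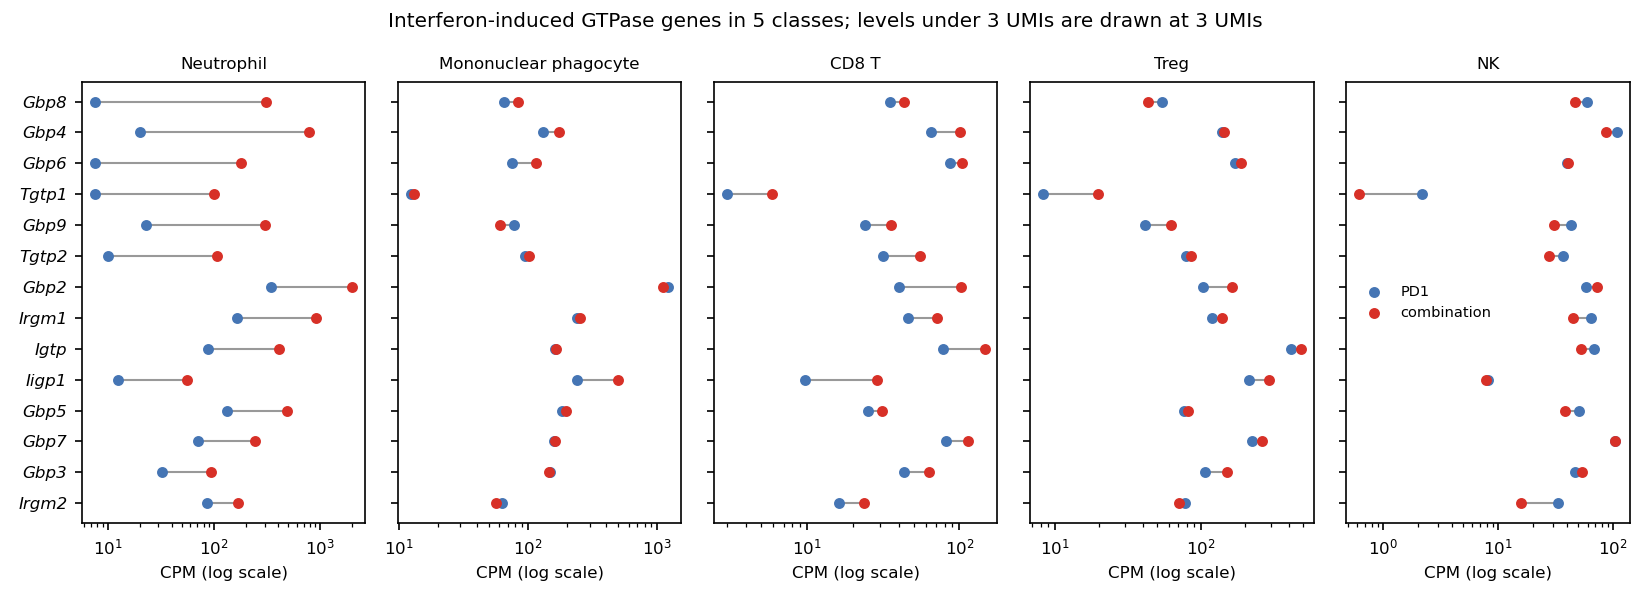
Levels (CPM, log scale) of the 14 guanylate-binding protein and immunity-related GTPase genes in 5 classes of the PD1 library (blue) and the combination library (red); levels under 3 UMIs are drawn at 3 UMIs. In neutrophils all 14 red points lie right of the blue ones, with Gbp4 at 20.2 and 789 CPM, while in mononuclear phagocytes most pairs nearly coincide.

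Other interferon and antigen presentation genes in neutrophils were higher too. In the MHC class I list, which carries peptides to CD8 T cells, 11 of 12 genes were higher and none was lower, with a median of 1.43. H2-K1, a class I heavy chain gene, stood at 594 and 2249 CPM, and B2m, its light chain, at 1526 and 3516 CPM. Interferon gamma response genes were higher in 11 of 16 and lower in 1, with a median of 1.26, which was 0.44 with cells grouped by clustering, and Irf8 was that 1, at 27.8 and 7.52 CPM. Type I interferon genes were higher in 10 of 15 and lower in none, with Zbp1, a sensor of nucleic acid, at 114 and 506 CPM. Cd274, which encodes PD-L1, stood at 826 and 2549 CPM, while the gene of the other PD1 ligand, Pdcd1lg2, stood at 222 and 130.1 CPM. Ly6i, a surface protein gene induced by interferon, stood at 30.3 and 1172 CPM. The 6 measured T cell attracting chemokine genes were all higher, with Ccl4 at 6780 and 13640 CPM and Cxcl9 at 25.3 and 119 CPM. The median of that list, 0.86, was 0.13 with cells thinned, which left 32 and 934 neutrophils, and Cxcl9 differed by -0.087 with cells grouped by clustering.

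Inflammatory genes and genes of CD40 signalling, which many tumour necrosis factor family receptors share, were also higher in neutrophils. Of 12 inflammatory genes 9 were higher and none was lower, with a median of 1.93, which was 1.26 among cells with at least 1000 genes. Il1a, which encodes interleukin 1 alpha, stood at 45.5 CPM (26.9 to 71.9) and 1815 CPM (1780 to 1852), 39.9-fold higher. Il1b stood at 3764 and 8990 CPM, Tnf at 83.4 and 682 CPM, Nos2, the inducible nitric oxide synthase gene, at 53.0 and 443 CPM, and Acod1, the itaconate synthase gene, at 1346 and 7793 CPM. In cells without an Il1a UMI, Acod1 and Tnf differed by 2.10 and 1.97. In the CD40 signalling list 9 of 14 genes were higher and 1 lower, with Traf1, an adaptor, at 48.0 and 466 CPM, Nfkb2, a subunit of the noncanonical pathway, at 20.2 and 152 CPM, and Nfkbia, the inhibitor of NF-kB, at 882 and 4900.0 CPM. Map3k14, the kinase of the noncanonical pathway, was the lower one, at 53.0 and 20.7 CPM. Sod2, a mitochondrial antioxidant enzyme, stood at 63.2 and 1254 CPM.

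Granule genes of neutrophils gave no stable direction. In the list 8 of 15 were higher and 4 lower, with a median of 2.10, but that median was -0.30 with cells thinned, -0.037 with every cell given equal weight and -0.86 with cells grouped by clustering. Thinning left 32 neutrophils of the PD1 library and 934 of the combination library. Members without a UMI in those 32 cells were set to the floor of 3 UMIs, which lowers their ratios, so the thinned median says little about direction. Camp, Elane and Mpo, granule genes of immature neutrophils, had no UMI in neutrophils of the PD1 library. Camp, at 125 CPM, was 16.5-fold higher than the floor of 3 UMIs, a log2 ratio of 4.05 with a lower bound of 3.74. Ngp, a further gene of immature cells, stood at 22.7 and 392 CPM, Lcn2 at 798 and 5264 CPM, and Mmp9, a protease of mature granules, at 748 and 221 CPM. Hamp and Cstdc5 also had no UMI in the PD1 library and stood at 127 and 258 CPM, and Cstdc5 belongs to a family of near-identical genes. The lower genes were Cd101, a surface marker of mature neutrophils, at 152 and 17.98 CPM, and Atp6v0d2 at 290.5 and 55.4 CPM. Hacd4, Gpsm1, Pip5k1b, Snx29 and Arhgap45 were lower by log2 ratios from -2.86 to -2.31. In the oxidative phosphorylation list 6 of 15 genes were lower and 1 higher, with a median of -0.44. Of all genes measured in neutrophils, 46.7% were lower and 9.36% higher, with a median of -0.525, which the floor of 3 UMIs lowers in part. The median ratio used for scaling, over genes at 20 CPM, was -0.366. Whether this list was lower than the class at large was not tested. The medians of the glycolysis, PD1 pathway and heat stress lists in neutrophils, -0.22, -0.32 and -0.17, were 0.14, 0.04 and 0.19 after scaling by the median ratio.

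**Figure D5:**
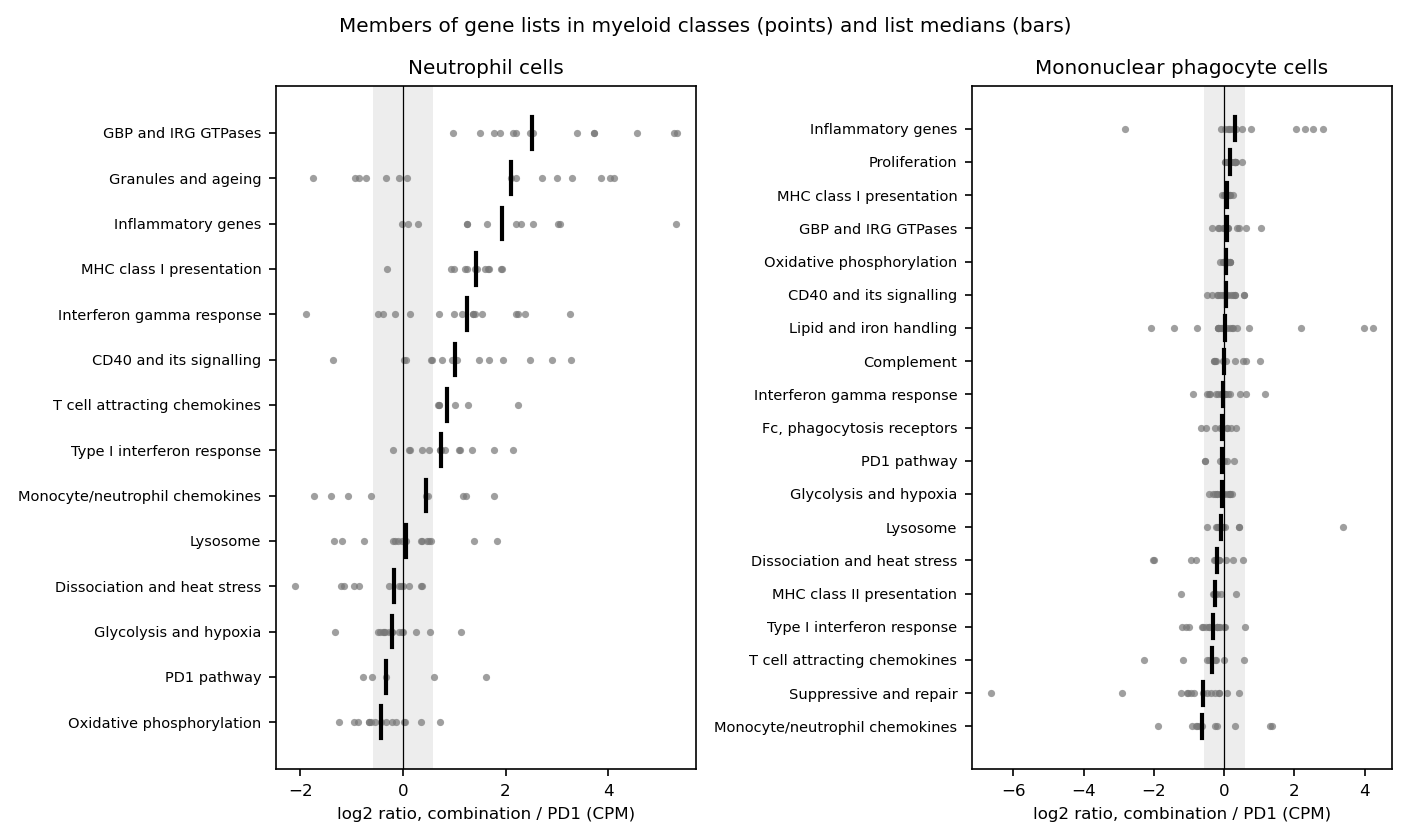
Log2 ratios of CPM, combination over PD1, for each measured member (points) of the gene lists in neutrophils (left) and mononuclear phagocytes (right), with list medians (bars); the grey band marks differences under 1.5-fold. All 14 GTPase genes lie right of the band in neutrophils, while in mononuclear phagocytes that list has a median of 0.08 and the suppressive list one of -0.61.

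In mononuclear phagocytes, genes of repair and suppressive macrophages were lower and a few genes of inflammatory and of tissue macrophages were higher. Of 14798 genes measured in the class, 6.99% were at least 1.5-fold higher and 7.48% lower. In the suppressive and repair list 8 of 15 genes were lower and none was higher, with a median of -0.61. Mrc1, the mannose receptor gene, stood at 148 and 72.8 CPM, Spp1, which encodes osteopontin, at 1819 and 1005 CPM, and Mgl2, a lectin gene, at 22.5 and 2.98 CPM. Mgl2 also marks dendritic cells, and Flt3, their growth factor receptor, stood at 4.52 and 0.543 CPM in the class, and the part of dendritic cells in this value was not tested. Retnla stood at 3.93 CPM in the PD1 library and had no UMI in the combination library. Apoe, the lipid carrier gene, stood at 1853 and 694 CPM, Pf4, a chemokine gene, at 370.4 and 101 CPM, Trf, the transferrin gene, at 103 and 24.4 CPM, and Fn1, the fibronectin gene, at 406 and 196 CPM. Trerf1 and Rsad2, an antiviral interferon gene, were lower by -1.18 and -1.08.

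Among the higher genes, Cd5l, whose product is released by resident macrophages and binds lipids and debris, stood at 3.11 CPM (2.76 to 3.50) and 58.4 CPM (56.7 to 60.1). Ctsk, a lysosomal protease, stood at 6.21 and 64.6 CPM, a log2 ratio of 3.38 that was 1.33 with cells grouped by clustering, and was the only gene of the lysosome list of 16 that was at least 1.5-fold higher, none being lower. Marco, a scavenger receptor, stood at 1.17 and 18.5 CPM, and Slc40a1, the iron exporter, at 6.68 and 30.1 CPM. Cd5l transcripts were in few cells: 0.387% of thinned phagocytes in the PD1 library and 2.53% in the combination library had a UMI, against 0 of 986 and 0.0342% of CD8 T cells. Nos2 stood at 70.6 and 349 CPM and was seen in 8.95% and 21.7% of thinned phagocytes, against 0.304% and 0.342% of CD8 T cells. Fpr2, a receptor for formyl peptides, Ly6i, Mt2, Smpdl3b and Lmna were higher by log2 ratios from 1.29 to 2.01. In the 4642 and 2376 phagocytes without a Nos2 UMI, Cd5l, Ctsk and Ly6i differed by 4.55, 4.13 and 1.80.

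Arg1, the arginase gene, was nearly level over the class and lower among the cells without a Nos2 UMI. It stood at 561 and 598 CPM in all phagocytes, and in 19.0% and 17.4% of thinned cells. Among phagocytes without a Nos2 UMI, whose median depths were 12890 and 16680 UMIs, it stood at 389.7 and 133 CPM, a log2 ratio of -1.55. Vegfa, the vascular growth factor gene, likewise stood at 73.9 and 48.6 CPM in the class and at 43.3 and 10.8 CPM without Nos2. Il1b, which differed by 0.51 in the class, differed by 0.04 without Nos2. Inflammatory genes were higher in 5 of 14 and lower in 1 over the class, with a median of 0.30: Il1a stood at 6.94 and 28.7 CPM, and Il12b, the interleukin 12 subunit, at 2.13 and 0.304 CPM.

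Chemokine and interferon genes of phagocytes differed by member, and few antigen presentation genes differed. In the monocyte and neutrophil chemokine list 6 of 11 genes were lower and 2 higher, with Ccl2 and Ccl7, attractants of monocytes, at 2100.0 and 1366 CPM and at 1685 and 989 CPM, and Cxcl2, an attractant of neutrophils, at 130.3 and 334 CPM. Of T cell attracting chemokine genes 2 of 8 were lower and none higher, with Cxcl9 at 1244 and 929 CPM. Type I interferon genes were lower in 5 of 16 and higher in none, with Ifit3 at 116 and 58.4 CPM. The GTPase list, which was higher throughout in neutrophils, had 2 of 14 genes higher, none lower, and a median of 0.08 here, with Iigp1 at 238 and 494 CPM. No gene of the MHC class I list of 12 or the CD40 signalling list of 15 differed by 1.5-fold, and 1 of 8 MHC class II genes was lower, with H2-Aa at 3505 and 3073 CPM. In the proliferation list no gene of 16 passed 1.5-fold. Complement genes were higher in 2 of 10, Cfb at 208 and 421 CPM and C3 at 145 and 221 CPM. The heat shock genes Hspa1a and Hspa1b stood at 89.0 and 22.2 CPM and at 68.9 and 17.0 CPM, and both were also lower in CD8 T cells, by -2.07 and -1.66. Hspa1b was lower in NK cells and neutrophils as well, by -1.80 and -2.10. In Treg cells Hspa1b was higher by 1.33, a value that turned lower under other settings. S100a8, a neutrophil gene, stood at 49.7 and 320 CPM in phagocytes, and its part in the inflammatory values was not tested.

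The 2 libraries without PD1 antibody allow ratios of the same kind, CD40 antibody over control, from cells that share no library with the comparison above. The share of CD8 T cells was 8.33% in the control and 24.9% with CD40 antibody alone, 2.99-fold higher, and that of neutrophils 2.90% and 6.48%, 2.24-fold higher. Mononuclear phagocytes were 53.5% and 54.9%, where with PD1 antibody they were 61.8% and 39.7%. Both conventional classes and mature dendritic cells together were 8.89% and 0.608%. In CD8 T cells Gzmk stood at 50.2 and 283 CPM and Ccl1 at 354 and 26.1 CPM. In NK cells the proliferation list had a median of 2.08, and in neutrophils the GTPase list had one of 3.34. The suppressive and repair list of phagocytes lay at -1.14. Il1a in neutrophils stood at 19.8 and 105 CPM without PD1 antibody, and at 45.5 and 1815 CPM with it. Rbpj in Treg cells stood at 164 and 148 CPM, and Itgb8 at 125 and 100.2 CPM, log2 ratios of -0.14 and -0.32. With PD1 antibody both were lower by more, at -2.05 and -1.78. Some ratios pointed in opposite directions. In NK cells, Gzmd and Gzmc had log2 ratios of 3.60 and 1.12 with PD1 antibody, and of -5.19 and -1.13 without it. Further results of this kind are given among the additional observations. Whether any of these pairs of ratios differ beyond the spread between mice could not be tested.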

How the data were processed

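Gene counts per cell barcode (UMIs) were deposited by the authors as 10x matrices of 32285 genes for 4 libraries. They were made with Cell Ranger 7.0.0 on GRCm38, per the submitters' processing notes; annotation release, cell calling and intronic counting were not given in those sources. Counts were analysed with Python 3.11.15, numpy 2.4.6, scipy 1.17.1, pandas 2.3.3 and scanpy 1.11.5. Barcodes with at least 300 genes and at most 10% mitochondrial UMIs were kept. A cell joined a class when its summed UMIs of the gate genes reached a minimum of 2 to 10 and genes that must be absent stayed under 2 UMIs. The limit was instead under 3 for summed Cd3d, Cd3e and Cd3g in NK cells. It was under 6 for summed Xcr1 and Clec9a in type 2 dendritic cells. Dendritic cell gates took precedence over the phagocyte gate under a limit on 1 phagocyte marker, an order set after a cross-table of gates was seen. Cells of several classes were left out as possible doublets, and no further caller was applied to the values reported; 257 and 239 cells had a doublet score of 0.25 or more. Within 2 times the gate minimum lay 6.63% and 4.11% of CD8 T cells, 9.59% and 7.87% of NK cells, 7.32% and 6.68% of neutrophils and 11.6% and 9.06% of phagocytes.

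UMIs were summed per class and library for the 5 classes with at least 100 cells in both libraries, and expressed as CPM. Levels have exact Poisson intervals, ratios exact conditional binomial intervals, and shares exact Clopper-Pearson intervals; counts under 3 UMIs were set to 3 in ratios. With 1 library a group there is no test. Up to 8 genes a class and direction were named by the interval bound nearest 0, at 50 CPM and 30 UMIs or more, an absolute log2 ratio of 1 or more, and at least 0.2 times the highest level among classes; gate genes, mitochondrial, ribosomal, haemoglobin, immunoglobulin, T cell receptor, Xist and Y-linked genes were not named, nor were predicted gene models. Some genes that met the rule are not reported here. Of the 34 gene lists, the members named are the highest, the lowest and defining ones; list members needed 20 UMIs. The members and lists were chosen with earlier results of these data known, and the lists described in each class were narrowed, by relevance to the cell type, after values had been seen. Splits by UMIs of Gzmk, of proliferation genes, of Nos2, of Il1a, and of Cd8a, Cd8b1 or Gzmk in Treg cells, and the set of cells where marker and cluster agreed, were chosen after seeing the data. The ratios and their intervals were tested on simulated data with known fold changes. Promoter sequences are from RefSeq GRCm38.p6.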

Additional observations from a re-analysis of the deposited data

Results flagged for a closer look

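In 13 results the ratio with PD1 antibody (combination over PD1) and the ratio without it (CD40 antibody over control) pointed in opposite directions by at least 1.5-fold each; with 1 library a group, none of these differences was tested. In NK cells, Gzme had log2 ratios of 3.92 with PD1 antibody and -7.97 without it, the latter from only 3 UMIs in the CD40 library with an interval from -10.25 to -6.42, Gzmd 3.60 and -5.19, and Gzmc 1.12 and -1.13. The level of Gzmd was 509 CPM in the control, 13.9 CPM with CD40 antibody, 18.2 CPM with PD1 antibody and 220.0 CPM in the combination. In Treg cells, Xcl1 had 3.38 and -0.85, Ifit3 1.27 and -2.84, Cdk1 0.66 and -0.69, and Il1rl1 -0.82 and 1.48. The ratio with PD1 antibody changed sign under another setting for Xcl1, Ifit3 and Cdk1. It was -1.69 for Xcl1 with the gate doubled, -1.92 for Ifit3 with clusters and -1.01 for Cdk1 with thinning. In CD8 T cells the heat shock genes Hspa1a and Hspa1b had -2.07 and 1.69, and -1.66 and 1.30. In neutrophils Atp6v0d2 had -2.39 and 0.96, Pdcd1lg2 -0.77 and 0.70, and Ptgs2 2.30 and -0.72. In mononuclear phagocytes Cxcl2 had 1.36 and -0.87. The requirement of 20 CPM in each pair of libraries was added after a first, longer list had been seen.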

How the results depend on the processing

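No paired analysis was possible because each group was 1 library. Alternatives were stricter limits on mitochondrial UMIs and genes, doubled gate minimums, doublet scores left out, thinning, equal weight for every cell, median-ratio scaling, no minimum on UMIs, classes from clusters and, chosen after seeing the data, cells where marker and cluster agreed and cells without the state genes. Counting each value once under each setting, 75 of 84 values of class shares moved by less than counting error, 729 of 780 of list medians and 1988 of 2294 of gene ratios kept their size and direction, and 38 of 168 values of cell shares moved, 28 of them at full depth. The log2 ratio of the CD8 T share was 1.31 and that of type 2 dendritic cells -4.26 with clusters, that of neutrophils 3.78 with at least 1000 genes, and that of NK cells -0.53 where marker and cluster agreed. That of other CD4 T cells was -0.027 with gates doubled and -1.32 with clusters, that of mature dendritic cells -2.001 with clusters, and that of remaining T cells -0.48 with gates doubled and -0.78 where marker and cluster agreed. With clusters, the GTPase medians were 0.21 in CD8 T cells and 1.48 in neutrophils, and the neutrophil MHC class I median 0.86. The naming of clusters went through 3 versions after their genes had been seen. Values that changed sign with clusters were Camp -1.97, Ngp -2.20, Elane -2.21, Ltf -2.19 and Cxcl9 -0.087 in neutrophils, Ccr2 -0.23, Gbp2 -0.20, Rtp4 -0.088, Irf7 -0.31 and Maf -1.09 in CD8 T cells, and Ifit3 -1.92 in Treg cells. Ifit3 was -0.33 where marker and cluster agreed. With thinning, Cdk1 in Treg cells was -1.01, Elane in neutrophils -1.28 and Mpo -2.65. Elane and Mpo had no UMI in neutrophils of the PD1 library, of which thinning left 32. Their negative values reflect the floor of 3 UMIs there and not a higher level in the PD1 library. With the Treg gate doubled, Xcl1 was -1.69 and Hspa1b -3.21, and Hspa1b was -1.29 without cells with Cd8a, Cd8b1 or Gzmk UMIs. Maf in CD8 T cells was -0.67 without Gzmk. The neutrophil granule list was -0.86 with clusters, -0.13 where marker and cluster agreed, -0.037 with equal weights and -0.30 with thinning, where the same floor applied. Apart from the part of the floor, the cause was not tested. A change of sign was counted only where the reported size was at least 1.5-fold, a limit raised after results had been seen; below it, the type I interferon lists also changed sign with clusters, to -0.61 in CD8 T and -0.51 in Treg cells. The neutrophils of the PD1 library, with 395865 UMIs in all against 5449260, and the 125 Treg cells of the combination library limit the precision most.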
